A study of Homo sapiens with 2 samples.

Results

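The genes described here, chosen by symbol, encode nuclear subunits of respiratory complexes III, IV and V, together with assembly factors whose symbols share the same stem. Members were the rows of the deposited gene table whose symbol starts with UQCR or ATP5, or is COX followed by a digit and at least 1 further character. Hyphenated symbols and rows described as pseudogenes were left out, which removed 3 rows (UQCRBP1, ATP5J2-PTCD1 and COX10-AS1). The rule gave 53 members of 27685 genes: 9 for complex III, 26 for complex IV and 18 for complex V. It did not use expression values. The rule takes symbols only, so it includes ATP5S and ATP5SL (current symbols DMAC2L and DMAC2), whose names here refer to ATP synthase. They are counted under complex V by symbol, not as its structural subunits.

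RNA came from NCI-H838, a permanent cell line derived from a human adenocarcinoma of the lung (non-small cell lung cancer). It was taken 48 hours after plasmid was delivered transiently with Lipofectamine 2000. The LINC00472 group received pCDH-LINC00472, a plasmid carrying the full-length long noncoding RNA LINC00472, and the control group received the empty pCDH vector. Each group held 1 library, and the sources used here do not state how many cultures were behind it. No p-value is therefore given, and each interval below covers counting error only. Fewer cells of a kind and less RNA per cell cannot be told apart in bulk RNA.

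The LINC00472 library held 21093055 gene counts and the control library 54823706. LINC00472 itself had 5655 against 2563 counts, a log2 ratio of 2.23 (95% counting interval 2.16 to 2.30), so the control library also held reads assigned to it. Of 10 epithelial and lung markers, 5 were at the minimum level set below. These were the keratins KRT8 (1153 against 9714 counts) and KRT18 (822 against 13046), the adhesion genes CDH1 (239 against 368) and EPCAM (48 against 117), and the aspartic protease NAPSA (88 against 66). The keratin KRT19 had 0 against 44 counts. The surfactant genes SFTPC and SFTPD had 0 against 7 and 2 against 0, and SFTPB and the lung lineage factor NKX2-1 had 0 counts in both libraries. Of 7 markers of blood and endothelial cells, 6 had 0 counts in the LINC00472 library, and VWF had 35 counts there against 48 in the control. In the control, LYZ had 49 counts, PTPRC 32, CDH5 9, PECAM1 6, HBB 4 and CD3E 0.

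Complex III, or cytochrome bc1, passes electrons from ubiquinol to cytochrome c. Complex IV, cytochrome c oxidase, passes them on to oxygen, and both pump protons across the inner mitochondrial membrane. Complex V, ATP synthase, lets the protons flow back through a rotating ring of c subunits and uses the turning stalk to make ATP in its F1 head. The catalytic cores of complex IV and the cytochrome b of complex III are encoded by mitochondrial DNA, whereas the genes below are transcribed in the nucleus, and their proteins are imported.

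Transcripts of all 3 complexes were lower in the LINC00472 library. A member is called lower or higher where its mean level was at least 1 CPM (read counts scaled to library depth), its ratio at least 2-fold and its interval excluded equality. Of the 53 members 47 reached the minimum, and of these 37 were lower, 1 was higher and 9 did neither. Among all 14012 genes at the minimum, 23.8% were lower and 16.3% were higher. Higher calls made up 40.6% of all calls with the TMM scaling used here, 57.9% for total-count scaling and 63.9% for upper quartile scaling, under which 35 and 30 members were lower. The share of lower members was 78.7%, with 1 library per group and no replicate check. The median log2 ratio, LINC00472 over control, was -1.59 for the members at the minimum and -0.19 for all genes at the minimum.

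Other short messenger RNAs were lower too. Transcript length was read from the deposited values as the length that turns control counts into control FPKM (fragments per kilobase and depth unit). The median was 1194 nt for the members at the minimum and 3228 nt for protein-coding genes at the minimum. Of 586 protein-coding genes under 1000 nt, 441 (75.3%) were lower, with a median log2 ratio of -1.68. Here and below, sets of protein-coding genes include the members. Of the 23 members under 1000 nt, 20 (87.0%) were lower, with a median of -1.71. Members of 1000 nt or more were lower in 17 of 24 cases (70.8%), against 23.8% of 11678 protein-coding genes of 1000 nt or more. These 2 sets still differed in length, with medians of 1877 and 3351 nt. Among protein-coding genes 57.7% were lower from 1000 to 1400 nt, and 3.26% at 8000 nt or more. With ratios adjusted for this length, a step chosen after the data were seen, 16 members were lower and 2 higher, against 21.6% of all genes lower under the same adjustment. With ratios adjusted for transcript lengths from GENCODE 29, 22 were lower and 2 higher, against 23.1% of all genes lower. What else goes with length in these libraries was not tested.

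**Figure D1:**
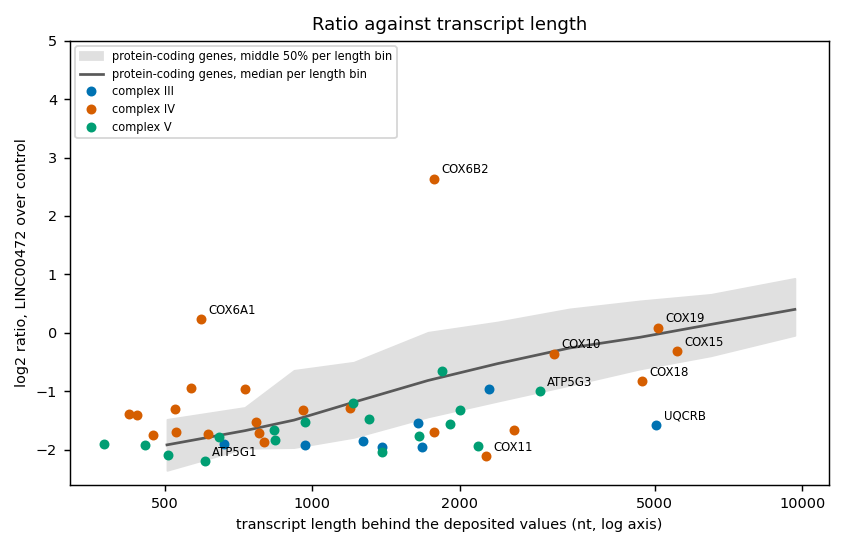
Log2 ratio of LINC00472 over control (vertical) against the transcript length behind the deposited values (horizontal, log axis) for the 47 members at the minimum, coloured by complex. The grey line and band give the median and middle 50% of protein-coding genes in 10 length bins. Of the members under 600 nt 8 lie above their bin's median of -1.92, those between 1000 and 1400 nt lie at or below the line, and COX6A1 and COX6B2 stand apart above.

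Within length bins the members lay on both sides of the median of protein-coding genes, which include the members. Of 10 members under 600 nt, 8 lay above the bin's median of -1.92 and 2 below. Of 6 members from 1000 to 1400 nt, 6 lay below the bin's median of -1.19. Of 5 members from 2000 to 2800 nt, 5 lay below the median of -0.53. Over all bins 33 members lay below the median of their bin and 14 above. With 10 bins of equal numbers of protein-coding genes, these were 35 and 12. Across the 47 members, which are not replicates, Spearman's correlation of ratio and length was 0.28, against 0.41 across 12264 protein-coding genes.

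Complex III was lower in 7 of its 8 subunits with UQCR symbols at the minimum (87.5%), with a median log2 ratio of -1.88. Among all genes at the minimum 23.8% were lower. The median length of the 8 was 1515 nt, and 42.9% of protein-coding genes from 1400 to 2000 nt were lower. The core proteins form the matrix-facing base of the complex. UQCRC1 (NCBI gene ID 7384), core protein 1, had 1340 counts with LINC00472 and 11034 with the empty vector, or 35.2 and 120 in deposited FPKM. Its log2 ratio was -1.95 (interval -2.04 to -1.87), a level 3.87-fold lower. UQCRC2 (7385), core protein 2, had 2172 against 9067 counts, or 41.8 against 72.1 FPKM. Its log2 ratio was -0.97 (-1.04 to -0.90), just short of 2-fold. The gene with more counts differed between the libraries. UQCRC1 held 54.9% of the pair's counts in the control (exact 95% interval 54.2 to 55.6) and 38.2% in the LINC00472 library (36.5 to 39.8). A share of this kind does not depend on the scaling between libraries. This pair was chosen after its values were seen.

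The other complex III subunits lay close together. UQCRFS1, the Rieske iron-sulfur protein that hands electrons to cytochrome c1, had 728 against 5572 counts and a log2 ratio of -1.85. UQCRH, the hinge protein, had 1416 against 11323 counts and was 3.76-fold lower. UQCR11 (339 against 2805 counts) and UQCR10 (301 against 2423), small accessory subunits, had log2 ratios of -1.96 and -1.92. UQCRQ (1015 against 6277) and UQCRB (1426 against 9119), further accessory subunits, had -1.54 and -1.59. UQCRB had the longest transcript of the 8, at 5039 nt, and had a log2 ratio of -1.91 after adjustment for that length and -1.70 with its GENCODE length. UQCRH did not meet the rule under either adjustment, and UQCRQ did not with GENCODE lengths. UQCRHL, a near copy of UQCRH, had 9 against 69 counts, below the minimum, and reads of the 2 cannot be told apart with certainty.

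The core pair of complex III is shown with the 250 bases before the transcription start. Beside it stand COX5B, COX6A1 and COX10 of complex IV, with contrasting ratios, and ATP5I of complex V. The sequences come from RefSeq (GRCh38.p14), a different build from the hg19 named by the submitters, and run 5′ to 3′ on the gene's strand. Capitals mark matches to 3 motifs of factors known from promoters of respiratory genes: the NRF1 motif, CCGGAAG (the ETS family, which includes GABPA) and AAGATGGC (YY1), on either strand.
UQCRC1 (chr3:48609647-48609896, minus strand): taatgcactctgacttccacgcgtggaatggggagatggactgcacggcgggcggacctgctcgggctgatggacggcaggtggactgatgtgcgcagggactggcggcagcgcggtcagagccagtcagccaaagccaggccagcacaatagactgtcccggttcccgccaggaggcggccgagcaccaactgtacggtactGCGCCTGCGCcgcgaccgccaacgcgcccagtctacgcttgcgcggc
UQCRC2 (chr16:21953111-21953360, plus strand): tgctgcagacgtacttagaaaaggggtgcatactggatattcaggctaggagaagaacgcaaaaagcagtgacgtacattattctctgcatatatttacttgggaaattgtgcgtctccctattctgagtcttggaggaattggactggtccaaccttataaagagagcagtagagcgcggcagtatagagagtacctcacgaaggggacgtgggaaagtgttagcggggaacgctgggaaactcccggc
COX5B (chr2:97645812-97646061, plus strand): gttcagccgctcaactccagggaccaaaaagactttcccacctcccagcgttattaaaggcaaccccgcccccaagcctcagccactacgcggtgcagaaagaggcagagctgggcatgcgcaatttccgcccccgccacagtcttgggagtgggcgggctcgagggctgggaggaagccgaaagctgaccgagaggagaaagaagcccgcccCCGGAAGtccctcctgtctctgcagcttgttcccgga
COX6A1 (chr12:120437863-120438112, plus strand): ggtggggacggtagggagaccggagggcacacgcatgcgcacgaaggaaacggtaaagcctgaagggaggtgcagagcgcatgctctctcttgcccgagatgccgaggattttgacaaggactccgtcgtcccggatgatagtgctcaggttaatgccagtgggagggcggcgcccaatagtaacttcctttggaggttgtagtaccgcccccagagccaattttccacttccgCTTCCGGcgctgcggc
COX10 (chr17:14069254-14069503, plus strand): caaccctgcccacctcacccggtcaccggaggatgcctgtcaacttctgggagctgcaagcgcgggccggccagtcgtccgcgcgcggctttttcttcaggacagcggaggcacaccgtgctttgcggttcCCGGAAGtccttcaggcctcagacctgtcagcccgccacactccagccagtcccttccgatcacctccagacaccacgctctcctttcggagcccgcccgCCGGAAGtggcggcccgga
ATP5I (chr4:674277-674526, minus strand): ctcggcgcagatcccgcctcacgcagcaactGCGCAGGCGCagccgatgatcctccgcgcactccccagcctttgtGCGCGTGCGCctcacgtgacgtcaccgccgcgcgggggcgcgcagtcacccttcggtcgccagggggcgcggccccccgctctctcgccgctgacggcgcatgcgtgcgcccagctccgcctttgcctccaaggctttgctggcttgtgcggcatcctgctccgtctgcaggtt
In these bases UQCRC1 held an NRF1 match 47 bases before the start, and UQCRC2 held none of the 3. The genes shown were chosen after matches and ratios were seen. COX5B and COX6A1 each held an ETS match, 37 and 16 bases before the start, with log2 ratios of -1.31 and 0.23. COX10 held 2 ETS matches and had a log2 ratio of -0.36, and ATP5I held 2 NRF1 matches and had -1.91.

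The RefSeq table held windows for 41 members, 39 of them at the minimum. Each window ran from 250 bases before to 50 after a start, and a gene counted once if any of its windows held the motif. The ETS motif was in 17 of 39 members (43.6%), against 22.9% of 10091 protein-coding genes at the minimum and 12.2% of 27305 genes with a window. The NRF1 motif was in 9 (23.1%), against 13.4% and 6.98%, and the YY1 motif in 5 (12.8%), against 6.56% and 3.52%. Members with an ETS match had a median log2 ratio of -1.54 and those without one -1.69. For NRF1 the medians were -1.85 with and -1.53 without a match. For YY1 they were -1.66 and -1.60. GGGCGG (SP1) was in 25 members (64.1%), against 77.3% and 48.3%, and CCAAT in 20 (51.3%), against 43.6% and 39.7%. Their medians were -1.53 with and -1.74 without SP1, and -1.70 and -1.54 for CCAAT. Motifs were searched on both strands and may overlap one another. A match describes letters only, and no binding was measured. GABPA itself had a log2 ratio of -0.05 and NRF1 0.09, while YY1 was at -1.03 (interval -1.09 to -0.96), just past 2-fold. Total-count and upper quartile scaling move ratios upwards, so the lower call of YY1 depends on the scaling.

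**Figure D2:**
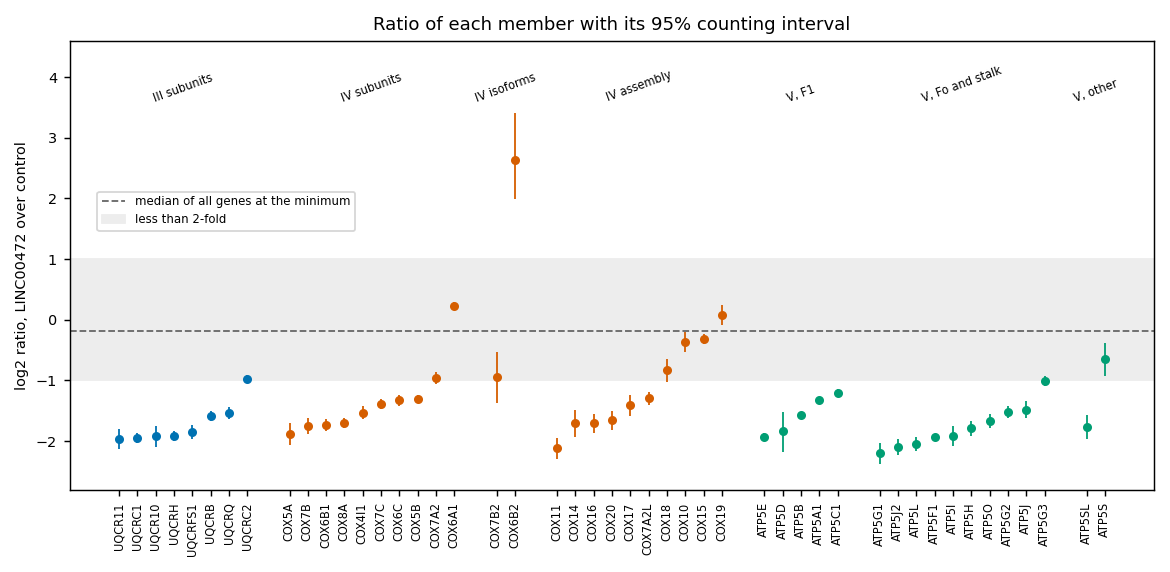
Log2 ratio of LINC00472 over control for the 47 members at the minimum, by complex and role, with 95% counting intervals as bars. The dashed line is the median of all genes (-0.19), and the grey band marks less than 2-fold. Subunits of all 3 complexes lie near -1 to -2, COX6A1, COX10, COX15 and COX19 lie near 0, and COX6B2 lies above 2.

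The 10 ubiquitous nuclear subunits of complex IV with COX symbols ran from lower to nearly equal. Of these, 8 (80%) were lower, against 23.8% of all genes at the minimum, and the median log2 ratio was -1.46. Their median length was 603 nt. Among protein-coding genes 84.6% were lower under 600 nt and 79.1% from 600 to 800 nt, with medians of -1.92 and -1.68. COX5A had 285 against 2231 counts and was 3.68-fold lower, the most of the 10. COX7B (536 against 3830 counts), COX6B1 (998 against 7091) and COX8A (1637 against 11327) had log2 ratios of -1.75, -1.74 and -1.70. COX4I1, the subunit that binds ATP, was 2.89-fold lower (828 against 5093). COX7C (1657 against 9221), COX6C (1176 against 6270) and COX5B (1868 against 9827) were 2.61-fold, 2.51-fold and 2.47-fold lower. With upper quartile factors their log2 ratios were -0.999, -0.937 and -0.918, which did not meet the rule. COX7A2 (1180 against 4881) had a log2 ratio of -0.96 and did not reach 2-fold. With GENCODE lengths COX5A was the 1 subunit of the 10 that still met the rule as lower, and with the lengths behind the deposited values 0 did. COX5B, COX7C and COX7A2 had adjusted log2 ratios of -0.37, -0.41 and -0.08 with GENCODE lengths, and 0.11, 0.22 and 0.16 with the lengths behind the deposited values.

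COX6A1 went against the other subunits of its complex. It had 4217 counts with LINC00472 and 7643 with the empty vector, or 314 against 235 in deposited FPKM. Its log2 ratio was 0.23 (interval 0.18 to 0.29), where the other 9 lay between -1.88 and -0.96. Among the 47 members it ranked 7 by FPKM in the control and 1 in the LINC00472 library. Its transcript was short (594 nt), and after adjustment for length its log2 ratio was 1.54 (1.29 with GENCODE lengths), which met the rule as higher. GENCODE 29 lists a further gene, AL021546.1, overlapping it on the same strand, and RefSeq lists 6 pseudogenes named after it, so reads could be shared. Their part in the value of COX6A1 was not tested. Such copies are not particular to COX6A1. Of the members at the minimum 30 had a named pseudogene, 27 of them lower, and COX6C had the most, with 18. Further members, among them COX16 and COX19, also overlap a gene on the same strand.

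**Figure D3:**
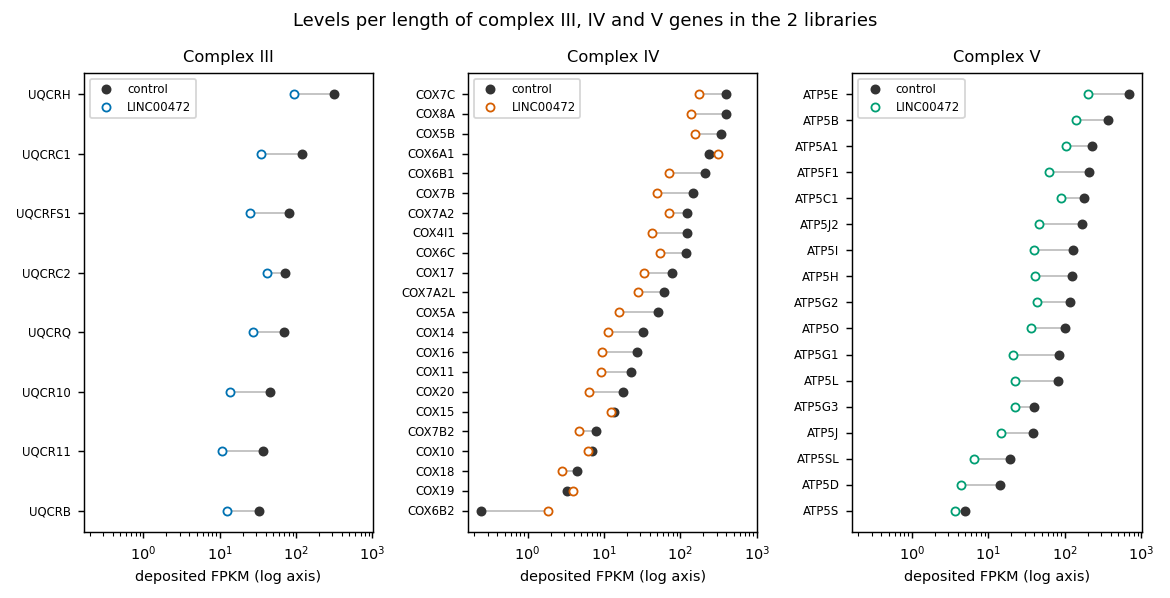
Deposited FPKM (horizontal, log axis) of the 47 members at the minimum in the control (filled) and LINC00472 (open) libraries, by complex and sorted by the control. Open points lie to the left for nearly all members, and COX6A1, COX19 and COX6B2 are the exceptions.

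The order of levels per length was similar in both libraries. ATP5E had the highest FPKM in the control (688), followed by COX7C (398), COX8A (393) and ATP5B (366). Spearman's correlation of FPKM between the libraries was 0.97 across the 47 members, as a description. The members took 0.565% of counts in the control (exact 95% interval 0.563 to 0.566) and 0.253% in the LINC00472 library (0.251 to 0.256). Complex III took 0.105% against 0.0415%, complex IV 0.165% against 0.0930% and complex V 0.295% against 0.119%. Complex IV owed 4217 of its 19626 counts in the LINC00472 library to COX6A1.

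Tissue-restricted isoforms of complex IV subunits had few or no counts. COX4I2, COX6A2, COX7A1 and COX8C had 0 counts in both libraries. A count of 0 allows up to 3 counts, or 0.129 CPM in the LINC00472 library and 0.0605 CPM in the control. COX7B2, known from testis, had 60 against 246 counts and a log2 ratio of -0.94. COX6B2, another isoform known from testis, was the 1 member called higher, with 72 counts against 24. Its log2 ratio was 2.64 (interval 1.99 to 3.41), a 6.24-fold difference at a mean of 1.79 CPM. COX6B2 stood at 3.09 CPM with LINC00472 and 0.484 CPM in the control, so it reached the minimum only through the LINC00472 library. In FPKM with 0.5 added its log2 ratio was 1.64. It took 6.73% of COX6B counts (5.30 to 8.40) against 0.337% (0.216 to 0.501) in the control. GENCODE 29 lists AC020922.1 overlapping it on the same strand, and at a minimum of 5 CPM it is not counted.

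The factors that assemble complex IV differed among themselves. The copper-handling proteins COX11 and COX17 were lower. COX11, which delivers copper to the catalytic core, had 300 against 2773 counts and a log2 ratio of -2.12 (interval -2.30 to -1.95). It overlaps other genes on both strands, and its log2 ratio in FPKM with 0.5 added was -1.24. COX17, the copper chaperone of the intermembrane space, was 2.66-fold lower (335 against 1896 counts), and its adjusted log2 ratio was -0.45 with its GENCODE length and 0.16 with the length behind the deposited values. COX19, also linked to copper handling, had 459 against 921 counts and a log2 ratio of 0.08 (-0.08 to 0.25).

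The heme A enzymes lay near the median of all genes. COX10, which adds the farnesyl tail to heme, had 436 against 1192 counts and a log2 ratio of -0.36 (-0.52 to -0.20). COX15, which acts after it, had 1569 against 4159 counts and a log2 ratio of -0.32 (-0.40 to -0.23). In FPKM they stood at 6.17 against 6.98 and 12.4 against 13.7. Their transcripts were long, at 3117 and 5556 nt, and after adjustment for these lengths their log2 ratios were -0.42 and -0.69. With GENCODE lengths they were -0.44 and -0.34.

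Factors that tend newly made COX1 and COX2 were lower with 1 exception. COX14 (199 against 1386 counts), which binds COX1 during its synthesis, had a log2 ratio of -1.71, COX16 (378 against 2629) had -1.71, and COX20 (379 against 2548), a COX2 chaperone, had -1.66. COX18 (302 against 1145), which inserts COX2 into the membrane, had -0.83 and did not reach 2-fold, although its ratio adjusted for its length of 4705 nt was -1.12, and -1.05 with its GENCODE length. COX7A2L, a COX7A relative that joins complexes III and IV into supercomplexes, was 2.46-fold lower (755 against 3946). With upper quartile factors its log2 ratio was -0.908, which did not meet the rule. Of the 10 assembly and supercomplex genes 6 (60%) were lower and 4 were not, with a median log2 ratio of -1.35. Among all genes at the minimum 23.8% were lower. The median length of the 10 was 2420 nt, and 31.5% of protein-coding genes from 2000 to 2800 nt were lower. COX14, COX17 and COX7A2L did not meet the rule under either adjustment for length, while COX11, COX16 and COX20 met it under both.

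All 15 structural subunits of complex V with ATP5 symbols were lower, against 23.8% of all genes at the minimum. The 5 subunits of the F1 head and its central stalk had a median log2 ratio of -1.56 and a median length of 1209 nt. Among protein-coding genes from 1000 to 1400 nt, 57.7% were lower. ATP5B, the catalytic beta subunit, had 6107 against 38397 counts, the most of any member, and was 2.95-fold lower. ATP5A1, the alpha subunit that alternates with it, had 4745 against 25184 counts and was 2.49-fold lower. ATP5B held 56.3% of the counts of both in the LINC00472 library (55.3 to 57.2) and 60.4% (60.0 to 60.8) in the control. ATP5C1, the gamma shaft, was 2.30-fold lower (2461 against 12024), ATP5D, the delta subunit, 3.58-fold (87 against 664) and ATP5E, the epsilon subunit, 3.81-fold (2118 against 17175). ATP5C1 no longer met the rule with total-count scaling, with upper quartile factors or with either adjustment for length. ATP5A1 did not meet it with upper quartile factors, nor ATP5D and ATP5E after adjustment for the length behind the deposited values.

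The membrane part and outer stalk of complex V were lower in 10 of 10 genes, with a median log2 ratio of -1.85. Their median length was 901 nt, and 67.9% of protein-coding genes from 800 to 1000 nt were lower. Of these 10 genes, 6 were lower after adjustment for GENCODE lengths and 3 after adjustment for the lengths behind the deposited values. ATP5H, ATP5I, ATP5J and ATP5O did not meet the rule under either adjustment, nor ATP5G1, ATP5G2 and ATP5J2 under the latter. ATP5F1, the b subunit of the outer stalk, had 3062 against 24969 counts and was 3.83-fold lower. ATP5H (d subunit, 602 against 4417 counts), ATP5J (F6, 470 against 2792) and ATP5O (the link to the head, 697 against 4696) had log2 ratios of -1.79, -1.48 and -1.66. Subunits e, f and g join ATP synthases into dimers or line the membrane part. ATP5I (e, 330 against 2644), ATP5J2 (f, 522 against 4748) and ATP5L (g, 701 against 6166) were 3.76-fold, 4.27-fold and 4.13-fold lower. ATP5J2 lies within a readthrough locus that takes part of its sequence. ATP5L2, a copy of ATP5L, had 7 against 16 counts, below the minimum.

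The c ring is made from 3 genes, ATP5G1, ATP5G2 and ATP5G3, whose proteins differ in the import signal and give the same mature c subunit. ATP5G1 had 288 against 2824 counts and a log2 ratio of -2.20 (interval -2.38 to -2.03), the lowest of all members. ATP5G2 was 2.87-fold lower (1011 against 6175), and ATP5G3 2.01-fold (1487 against 6354), with a log2 ratio of -1.01 (-1.09 to -0.92). ATP5G3 met the rule under both adjustments for length, but not with total-count scaling, upper quartile factors, FPKM or the control thinned to equal depth. Their intervals do not overlap. ATP5G1 took 18.4% of c ring counts in the control (17.8 to 19.0) and 10.3% in the LINC00472 library (9.23 to 11.5), while ATP5G3 went from 41.4% (40.6 to 42.2) to 53.4% (51.5 to 55.2). Counts grow with length, and in FPKM ATP5G3 took 16.4% in the control and 26.2% in the LINC00472 library. ATP5G1 was the shortest of the 3 (604 nt) and ATP5G3 the longest (2918 nt), and after adjustment for these lengths the log2 ratios of ATP5G1, ATP5G2 and ATP5G3 were -0.91, -0.65 and -1.03. With GENCODE lengths they were -1.17, -1.32 and -1.13, so the order of the 3 depended on the lengths used.

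**Figure D4:**
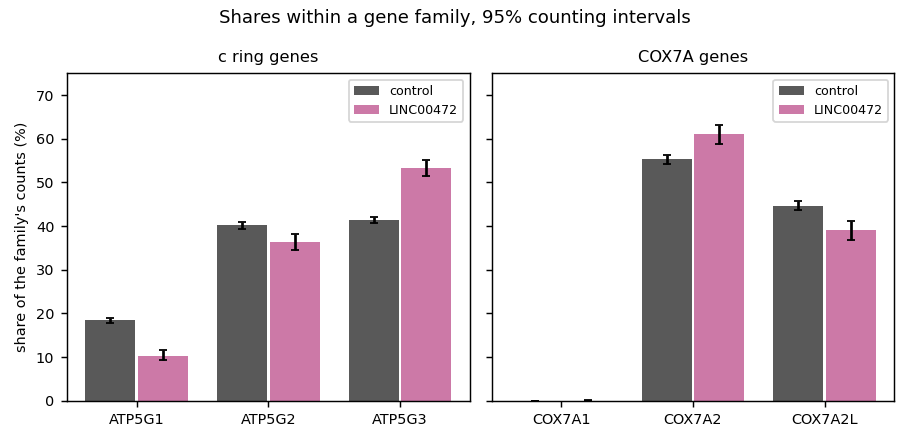
Share of the counts of a gene family (vertical, percent) taken by each gene in the control and LINC00472 libraries, for the c ring genes and the COX7A genes, with exact 95% counting intervals as bars. ATP5G1 takes 18.4% in the control and 10.3% with LINC00472, and ATP5G3 and COX7A2 take larger shares in the LINC00472 library.

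In the COX7A family, COX7A2 took 61.0% of counts in the LINC00472 library (58.8 to 63.2) and 55.3% in the control (54.3 to 56.3). The remainder went to COX7A2L, and COX7A1 had 0 counts. The last pair of members, outside the ATP synthase proper, differed from each other. ATP5SL was 3.41-fold lower (243 against 1766 counts), and ATP5S, coupling factor B, had a log2 ratio of -0.65 (-0.93 to -0.39; 150 against 502 counts).

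Partner genes outside the symbol rule were mixed. For comparison, 23.8% of all genes at the minimum were lower and 16.3% higher. Of 7 further subunits and assembly factors of complex III, 3 (42.9%) were lower and 0 higher. CYC1, cytochrome c1 itself, had the lowest log2 ratio (-1.90; 1300 against 10315 counts) and UQCC1, an assembly factor, the highest (0.30). Of 17 partners of complex IV, 11 (64.7%) were lower and 0 higher, from COA3 (-2.33), an assembly factor, to COA5 (0.40). Of 6 partners of complex V, 5 (83.3%) were lower and 0 higher, from USMG5 (-1.75), a small membrane subunit, to ATPAF2 (-0.31), an F1 assembly factor. Of 8 complex II genes, 3 (37.5%) were lower and 0 higher, from SDHD (-1.73) to SDHAF4 (0.58). Median lengths were 2024.5, 1202 and 1151 nt for partners of complexes III, IV and V, and 1360 nt for complex II. Among protein-coding genes from 1000 to 1400 nt, 57.7% were lower. With GENCODE lengths USMG5 (-0.69) and SDHD (-0.92) did not meet the rule, CYC1 (-1.40) and COA3 (-1.44) did, and SDHAF4 was at 1.11.

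Complex I, the entry point of the chain, resembled the members in these values. Of 46 genes with NDUF symbols at the minimum, 35 were lower (76.1%) and 1 higher, with a median log2 ratio of -1.64 and a median length of 882 nt. Among these 35 was NDUFA4 (-1.63), which was also counted among the partners of complex IV. NDUFB11, an accessory subunit, was the lowest (-2.40), and NDUFAF7, an assembly factor, the highest (1.12). The difference between complex I and the members was not tested, with 1 library per group. Of 12 regulators of mitochondrial genes, 4 (33.3%) were lower and 0 higher, against 23.8% and 16.3% of all genes at the minimum. TFB2M, a mitochondrial transcription factor, was the lowest (-1.30), and the coactivator PPARGC1A the highest (0.97, from 766 against 834 counts). With upper quartile factors TFB2M was at -0.92, no longer lower by the rule, and PPARGC1A at 1.35. No gene of the mitochondrial genome matched by name, so the mitochondrially encoded subunits were not analysed here.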

How the data were processed

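Total RNA of 2 libraries was analysed, 1 per group, with groups taken from the sample titles. Per the file headers, the authors deposited read counts per gene, not normalized, and FPKM. Per the submitters' processing notes, hg19 was the build, and the tools were HISAT2 2.1.0, StringTie 1.3.4b, Trimmomatic and bcl2fastq 2.20.0, with no roles stated. How reads were counted, and with which strand setting, is not given in the sources used here, so reads of overlapping genes cannot be separated. Counts were identical for all 27685 genes between the joint and the single-library tables.

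Library totals were multiplied by TMM factors from edgeR 4.0.16 under R 4.3.3 (1.11 for LINC00472, 0.905 for control). Log2 ratios used a depth-scaled prior of 0.5 counts, and intervals are exact conditional (Clopper-Pearson) 95% intervals. Reads are not independent molecules, so intervals and floors cover counting error only. DESeq2 1.42.0 size factors were an alternative. Length adjustment used splines (5 knots, degree 3) over protein-coding genes in scikit-learn 1.9.0, with the median added back. GENCODE 29 lengths and gene types were matched by RefSeq accession for 53 members and 96.2% of genes at the minimum.

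Every member at the minimum was named, and from each partner list the highest and lowest gene. Members and lists were chosen with earlier results of these data known. The length behind the deposited values, the split at 1000 nt, the length bins, the pairs compared by share and the promoters shown were chosen after values were seen. The roles given for genes are background knowledge.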

Additional observations from a re-analysis of the deposited data

How the results depend on the processing

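The scaling moved the ratios together. For all genes the median was -0.19 under TMM, 0.11 under total-count scaling and 0.21 under upper quartile scaling, on the log2 scale. The medians of members, complex III, complex IV and complex V were -1.30, -1.59, -1.07 and -1.48 with total counts, and, for upper quartile scaling, -1.20, -1.49, -0.97 and -1.38. With FPKM they were -1.42, -1.67, -1.17 and -1.53. Lower members numbered 35 with total counts, 30 with upper quartile factors and 36 with FPKM, against 16.3%, 14.2% and 17.3% of all genes. Upper quartile factors left 42 of 47 members with a negative ratio.

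Length adjustment had the largest effect of the alternatives run. With GENCODE lengths the 4 medians were -0.88, -1.26, -0.60 and -1.13, the members lay 0.58 below all genes (difference of medians -0.58), 22 were lower and 2 higher, and in complex IV 5 were lower and 2 higher. Evenly spaced knots, the version first run and replaced by knots at quantiles, gave -0.85, -1.28, -0.49 and -1.12, a difference of medians of -0.53, 21 lower and 2 higher members, and 5 and 2 in complex IV. With the lengths behind the deposited FPKM, an alternative chosen after seeing the data, they were -0.66, -1.17, -0.43 and -0.84, with a difference of medians of -0.40. Then 16 members were lower and 2 higher, in complex IV 4 and 2, and in complex V 6 were lower. Counts and medians of complex V follow the symbol rule and include ATP5S and ATP5SL, and ATP5SL was among these 6. The complex V median was the value of ATP5SL itself with total counts (-1.48), upper quartile factors (-1.38) and FPKM (-1.53). COX5B (0.11), COX7C (0.22) and COX17 (0.16) changed sign there. GENCODE lengths were over 2 times those behind the deposited values for 3 members, including ATP5E (3665 against 456 nt).

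Without a minimum above 1 count the difference of medians was -1.53 in place of -1.40. At 5 CPM 0 members were higher, in complex IV also 0. A 1.5-fold rule gave 42 lower members, and 36.5% of all genes were lower under it. Size factors of DESeq2, a prior count of 5 and the single-library tables left 37 lower. No paired analysis was possible because each group held 1 library, and none could be left out.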
